A study of Mus musculus with 6 samples.

Results

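The EGF family of growth factors and the ERBB receptors that bind them were followed in mouse neural stem and progenitor cells (NSPCs) through 10 genes. These were the ligands Areg, Ereg, Hbegf, Tgfa and Btc, the receptors Egfr, Erbb2 and Erbb3, the protease Adam17 that releases ligands from the cell surface, and Errfi1, an inhibitor of the receptors. The 10 genes are a small part of the 17254 genes seen in any library, and they were chosen by name with measured differences between these same libraries already known. Their values are therefore given as a description, without p-values, and the count of those past the threshold is stated once, with nothing drawn from it.

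RNA-seq was performed on 6 libraries, 2 for each of 3 groups: untreated control NSPCs, NSPCs treated with the pro-oxidant paraquat (PQ, 5 µM) and NSPCs treated with the thiol antioxidant N-acetylcysteine (NAC, 5 mM), each for 48 h. The cells of all groups were a neonatal, immortalized culture with the Ink/Arf-/- deletion (written Ink/Ark knockout in the labels of the first library of control and of PQ, which also give the strain as C57BL/6), grown in N2 medium with EGF and bFGF at 20 ng/mL. EGF, a ligand of the same receptor, was thus supplied to every group, and the culture is described in the study's methods as a mixture of stem cells, committed precursors and oligodendroglial progenitors. The dose of NAC is given in the study's methods and the dose of PQ in the methods for RNA-seq and in the labels of the first control and PQ libraries, whereas the methods for culture give a higher dose of PQ and the labels of the other libraries give none. Those libraries (protocol A below) carry labels naming a spin-column extraction and an Illumina sequencer, whereas the second control and PQ libraries and both NAC libraries (protocol B) are labelled as TRIzol extractions sequenced on a BGISEQ-500. NAC was not sampled under protocol A, so that NAC is compared with a control group of which only 1 library shares its protocol. Each library held between 9680436 and 10698241 expected counts. The labels do not say that libraries of a group came from separate cultures, so p-values measure only the spread between these libraries, which may be technical.

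Ligands of the EGF family are made as membrane-bound precursors, and ADAM17 and related proteases cut them free to act on the same cell or on its neighbours. Ligand binding brings ERBB receptors together in pairs and switches on their kinase, which signals through adaptors to the RAS-ERK and PI3K-AKT pathways. ERBB2 binds no known ligand of its own and ERBB3 has a weak kinase, so both act mainly as partners, while ERRFI1 (MIG6) binds the activated kinase and shuts it off. In the subventricular zone, EGF receptor marks activated stem cells and transit-amplifying progenitors, and EGF keeps such cells dividing in culture.

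Ligand and receptor transcripts differed widely in abundance in control cells when compared per transcript length. Hbegf was the most abundant, at 91.6 and 84.7 FPKM (fragments per kilobase of transcript, scaled by library total) in the control libraries, followed by Areg at 43.0 and 34.4 FPKM. Adam17 (31.8 and 32.6 FPKM), Egfr (30.0 and 27.4 FPKM) and Errfi1 (20.2 and 18.5 FPKM) came next. Ereg had a mean of 7.10 FPKM, Erbb2 of 5.05, Tgfa of 2.32 and Btc of 1.15. Erbb3 was lowest, with a mean of 0.140 FPKM. For each of the 9 neighbouring pairs in this order the control libraries did not overlap, though Areg, Adam17 and Egfr lay close together. The order was not the same after treatment, since Areg passed Hbegf in PQ (means of 93.5 and 81.7 FPKM).

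**Figure D1:**
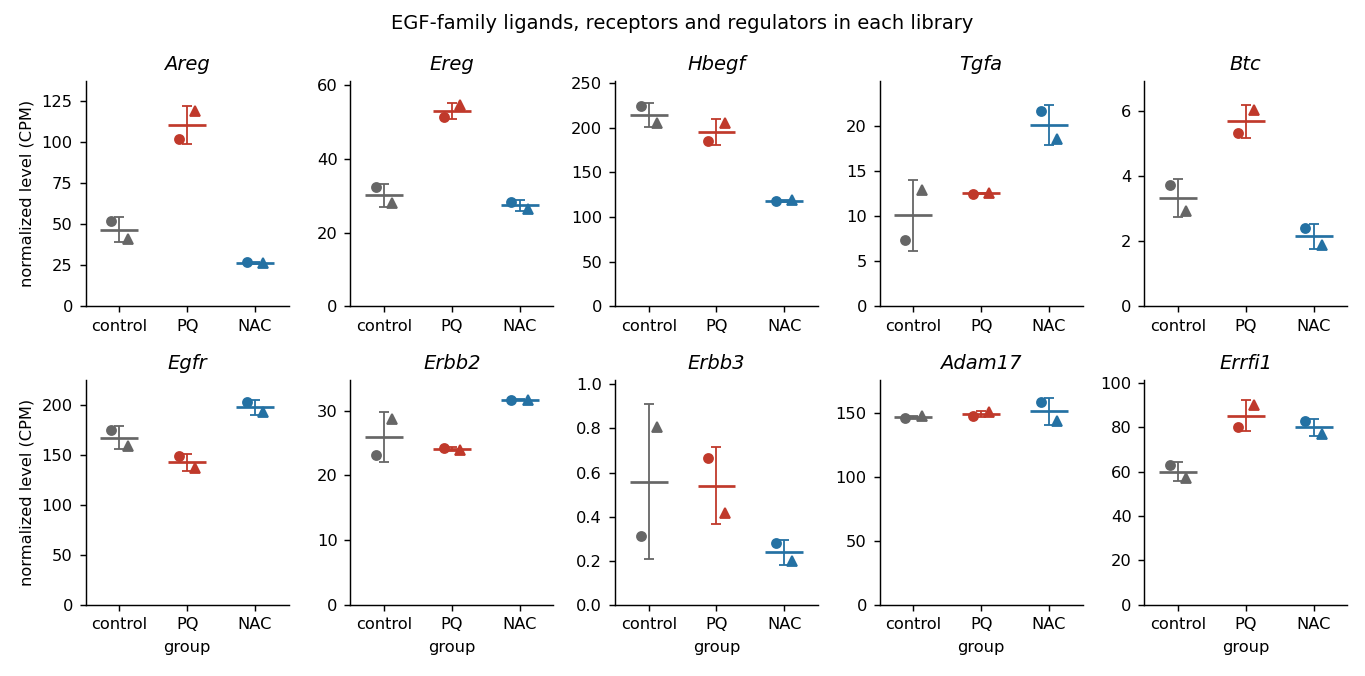
Normalized level in CPM (counts scaled to a common library total, vertical axis) of each gene in the control, PQ and NAC groups (horizontal axis). Points are single libraries (circles the first, triangles the second of a group), bars their mean and error bars 1 SD (n = 2). Areg, Ereg and Btc were highest in PQ, Hbegf was lowest in NAC, and Tgfa was highest in NAC.

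Areg encodes amphiregulin, an EGF receptor ligand with heparin affinity. In CPM, which are counts scaled to a common library total by TMM normalization, Areg stood at 51.9 and 41.1 in control, at 102 and 119 in PQ, and at 26.7 and 26.1 in NAC. The 3 groups did not overlap, PQ lying above control and NAC below it. The fitted log2 fold change against control was 1.25 in PQ (standard error 0.12), a 2.37-fold higher level, and -0.82 in NAC (standard error 0.13). Between PQ and NAC the level differed 4.18-fold (log2 fold change 2.06, standard error 0.12). In bulk RNA such as this, fewer cells of a type and less RNA per cell cannot be told apart. Within protocol A, PQ exceeded control by 0.97 on the log2 scale, and within protocol B by 1.52, where NAC lay at -0.64 relative to control.

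Ereg encodes epiregulin, which activates EGFR and ERBB4. Its level was 32.3 and 27.9 CPM in control, 51.5 and 54.6 CPM in PQ, and 28.4 and 26.3 CPM in NAC. Both PQ libraries lay above the other 4, whereas the NAC and control libraries overlapped. The log2 fold change was 0.82 in PQ (standard error 0.12) and -0.14 in NAC (standard error 0.12), both against control. Within the protocols PQ was higher by 0.67 and 0.96.

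Btc encodes betacellulin, another ligand of EGFR and ERBB4, and was the scarcest of the 5 ligands. It had 3.74 and 2.92 CPM in control, 5.33 and 6.04 CPM in PQ, and 2.41 and 1.88 CPM in NAC. The order of the groups was that of Areg, without overlap, but each library held no more than 57.6 expected counts of the gene and the errors were wide. The log2 fold change against control was 0.77 in PQ (standard error 0.27) and -0.62 in NAC (standard error 0.31), and PQ exceeded NAC by 1.39 (standard error 0.28). In limma fits on log2(FPKM + 1), in which the added 1 weighs on low genes, these differences were 0.47, -0.29 and 0.76. The expected counts of Btc were fractional in all 6 libraries, as arises where reads are shared with other sequences, so its level is uncertain.

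Hbegf encodes heparin-binding EGF-like growth factor. It was measured at 224 and 205 CPM in control, 185 and 206 CPM in PQ, and 117 and 119 CPM in NAC. The PQ and control libraries overlapped, and both NAC libraries lay far below the rest. The log2 fold change against control was -0.14 in PQ (standard error 0.10) and -0.86 in NAC (standard error 0.10), which left Hbegf 1.82-fold lower in NAC. Within protocol B, NAC lay at -0.80 relative to control, and PQ at -0.28 and 0.00 within protocols A and B.

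Tgfa encodes transforming growth factor alpha, a ligand of EGFR alone. Its level was 7.27 and 12.8 CPM in control, 12.5 and 12.5 CPM in PQ, and 21.6 and 18.5 CPM in NAC. Of the 5 ligands it was the only one higher in NAC than in control in these libraries, and the control libraries stood apart from each other. The log2 fold change against control was 1.00 in NAC (standard error 0.20) and 0.31 in PQ (standard error 0.21). These values hung on the control libraries: without the first, NAC differed by 0.65 and PQ by -0.04, and without the second, by 1.47 and 0.78. Within protocol A, PQ was higher by 0.76, while within protocol B the difference was -0.03 for PQ and 0.64 for NAC.

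**Figure D2:**
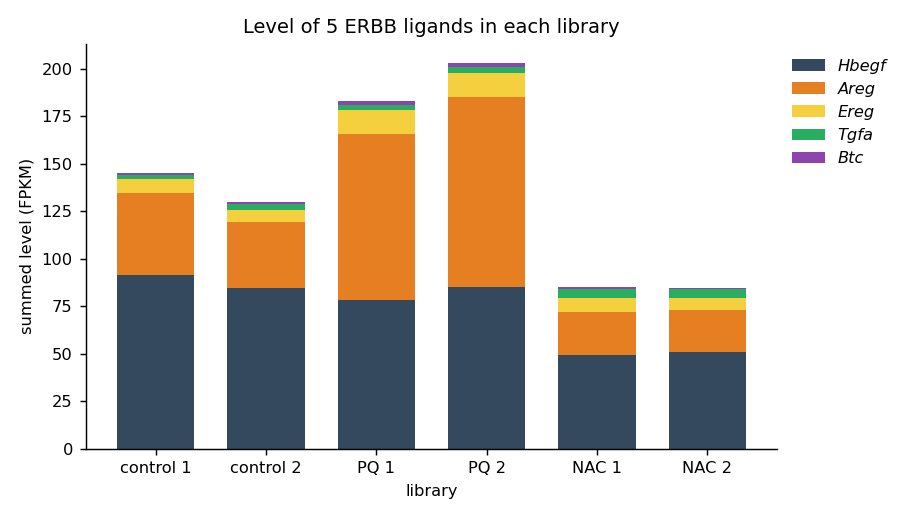
Summed level of the 5 ligand transcripts in FPKM (vertical axis) in each library (horizontal axis), with the part of each ligand in colour. The sum is highest in the PQ libraries (183 and 203 FPKM) and lowest in the NAC libraries (85.0 and 84.7 FPKM).

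The make-up of the ligand transcripts was then compared, library by library, from the FPKM values. Summed over the 5 ligands, the level was 145 and 130 FPKM in control, 183 and 203 FPKM in PQ, and 85.0 and 84.7 FPKM in NAC. Areg made up 29.6% and 26.5% of this sum in control, 47.8% and 49.1% in PQ, and 26.8% and 26.6% in NAC. In PQ the share of Areg was thus above that of Hbegf, whose part was 63.1% and 65.3% in control but 42.7% and 42.0% in PQ. In NAC, where Areg and Hbegf were both lower, their ratio of 0.461 and 0.444 lay within the range of the control libraries (0.406 and 0.469). Tgfa made up 6.01% and 5.23% of the ligand sum in NAC against 1.15% and 2.29% in control. The sum was largely set by Hbegf and Areg, and transcript levels say nothing of how much ligand was released.

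Egfr, the receptor that all 5 ligands bind, varied less. It stood at 175 and 159 CPM in control, 148 and 136 CPM in PQ, and 202 and 192 CPM in NAC. The groups did not overlap, with PQ lowest and NAC highest. Against control, the log2 fold change was -0.23 in PQ (standard error 0.10) and 0.24 in NAC (standard error 0.10), and PQ lay 0.47 below NAC on the log2 scale, a 1.39-fold lower level. Within the protocols PQ differed from control by -0.24 and -0.22, and NAC from control by 0.31. Egfr, too, had fractional expected counts in every library.

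Erbb2 was measured at 23.2 and 28.6 CPM in control, 24.3 and 23.8 CPM in PQ, and 31.7 and 31.7 CPM in NAC. The NAC libraries were highest, and the PQ libraries lay within the range of control. The log2 fold change was 0.29 in NAC (standard error 0.13) and -0.11 in PQ (standard error 0.14), and the value in PQ turned to 0.05 without the second control library. Without the first control library the value in NAC was 0.15, and without the second 0.45. Erbb3 was scarcely detected, with 3 and 8 expected counts in control, 7 and 4 in PQ, and 3 and 2 in NAC. At this depth no fold was computed for Erbb3, whose mean count lay below the minimum of 10 set for testing.

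Adam17 encodes the main protease for several EGF-family precursors, amphiregulin among them. It showed 146 and 148 CPM in control, 148 and 151 CPM in PQ, and 159 and 144 CPM in NAC. All 6 libraries lay close together, with log2 fold changes of 0.03 in PQ and 0.04 in NAC (standard error 0.09 each). Without the first NAC library the value in NAC was -0.03. The span of Adam17 overlaps that of Iah1 in the RefSeq gene table, and the span of Erbb2 overlaps that of Mien1. The study's methods name a stranded library kit, but the sources used here do not say whether strand was used in counting, so reads from the overlaps cannot be assigned with certainty.

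Errfi1, the gene of the receptor inhibitor, was higher than control in both treatments. Its level was 63.0 and 57.0 CPM in control, 80.4 and 90.2 CPM in PQ, and 82.8 and 77.3 CPM in NAC. Both treated groups lay above the control libraries and overlapped each other. The log2 fold change against control was 0.51 in PQ (standard error 0.10) and 0.42 in NAC (standard error 0.10), and PQ and NAC differed by 0.09 (standard error 0.10). Within the protocols PQ was higher by 0.35 and 0.66, and NAC by 0.49. These comparisons share the control libraries.

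**Figure D3:**
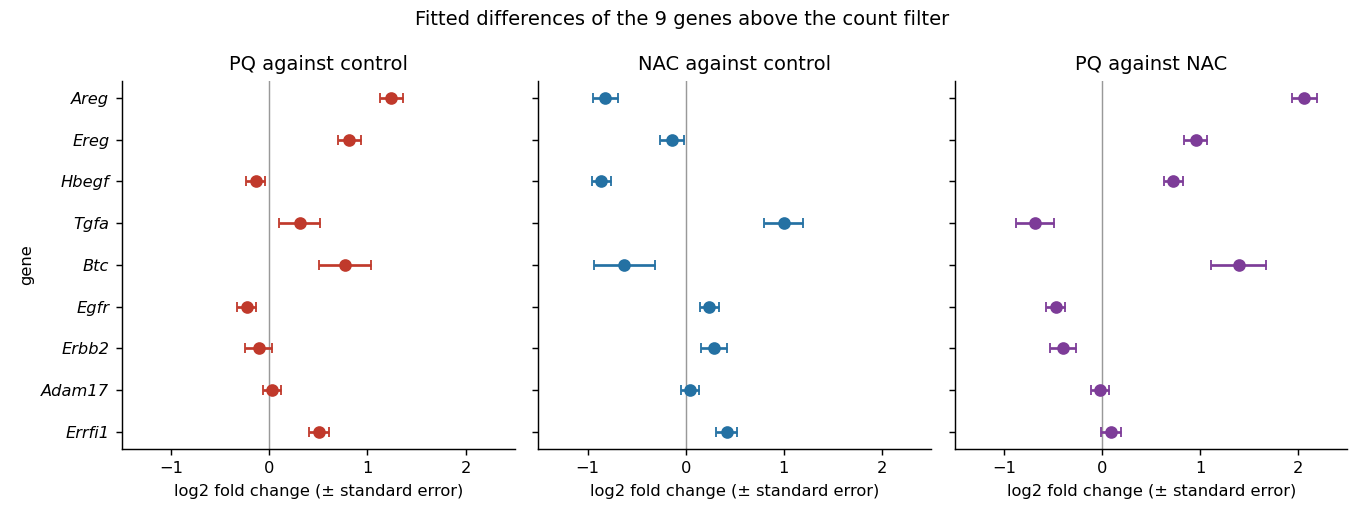
Log2 fold change (horizontal axis) of the 9 genes above the count filter (vertical axis) for PQ against control, NAC against control and PQ against NAC. Points are edgeR estimates and error bars 1 standard error. Areg has the largest difference between PQ and NAC (2.06), and Adam17 lies near 0 in each panel.

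Of the 10 genes, 9 passed the count filter. At an adjusted p under 0.05, Areg, Ereg and Errfi1 were among the genes called higher in PQ than in control, 3 of 9 tested, where 9.40% of the 12530 genes tested were called higher and 8.96% lower. In NAC against control, Tgfa and Errfi1 were called higher (8.94% of all genes) and Areg and Hbegf lower (9.39% of all genes). In PQ against NAC, Areg, Ereg, Hbegf and Btc were called higher (15.7% of all genes) and Tgfa, Egfr and Erbb2 lower (15.4% of all genes). Some of these calls hung on single libraries or on the fit. That of Errfi1 in NAC was lost without the second control library (log2 fold change 0.35) or the first NAC library (0.37). That of Tgfa between PQ and NAC held in 9 of 14 alternatives, with log2 fold changes from -0.79 to -0.49 against -0.69. That of Erbb2 held in 6 of 14, with log2 fold changes from -0.41 to -0.32 against -0.40. Calls were also gained, for Btc in PQ with no count filter and in limma on log2(FPKM + 1), and for Tgfa in PQ and Erbb2 in NAC without the second control library. Since the genes were chosen from these values, nothing follows from these counts.

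Ereg, Areg and Btc are next to each other on chromosome 5, together with Epgn, the gene of the ligand epigen. Epgn had at most 2 expected counts in any library. The 5 protein-coding genes on each side of the group were examined, chosen by position after the ligand values had been seen, and 4 of these 10 neighbours passed the count filter. Mthfd2l, directly next to Epgn, had a log2 fold change that came to -0.34 in PQ (standard error 0.15) and 0.07 in NAC (standard error 0.15). On the far side of Mthfd2l lie the chemokine genes Cxcl2 and Cxcl1, and their pattern was another one. Cxcl1 had 878 and 539 expected counts in control, 1813 and 1529 in PQ, and 1609 and 1512 in NAC, with log2 fold changes of 1.19 in PQ and 1.04 in NAC (standard error 0.15 each). Cxcl2 was scarce, with 6 to 35 expected counts, and differed by 1.39 in PQ and 1.14 in NAC. On the other side, Parm1 had at most 10 counts, and Rchy1 differed by 0.33 in PQ (standard error 0.12) and 0.00 in NAC (standard error 0.12). For none of these 4 neighbours was the log2 fold change in NAC below 0, as it was for Areg.

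**Figure D4:**
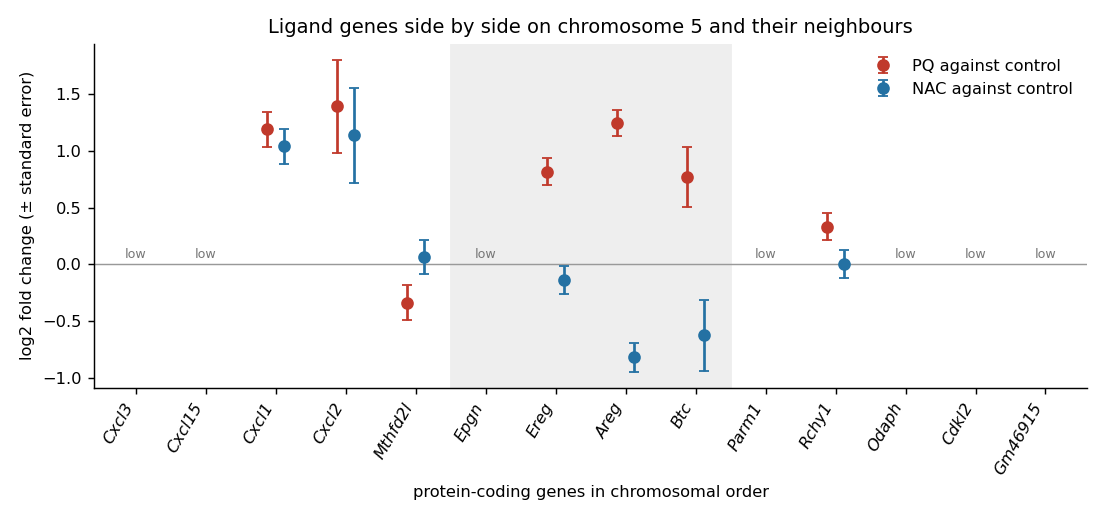
Log2 fold change against control (vertical axis, with 1 standard error) of protein-coding genes in their order along chromosome 5 (horizontal axis) in PQ and NAC. The shaded genes are Epgn, Ereg, Areg and Btc, and "low" marks genes below the count filter. The estimates of Areg lie above 0 in PQ and below 0 in NAC, and those of Cxcl1 lie above 0 in both. The estimates of Btc and Cxcl2 have wide errors.

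The promoters of Areg, Btc and Errfi1 are shown as examples. In each the PQ libraries lay above both control libraries, although for Btc the difference did not pass the threshold. The PQ libraries also lay above both control libraries for Ereg and, by a log2 fold change of only 0.03, for Adam17, which are not shown. The 250 bases before the start were taken from the RefSeq promoter table (build GRCm38.p6) for 7 of the 10 genes, with 8 starts. Ereg and Erbb3 were not found, and Hbegf was left out of the search. Capitals mark the motifs TGACGTCA, GGGCGG and TATAAA on either strand. The letters TGACTCA were searched as well, like TGTTTAC and also CACGTG, and occurred in none of the 8 windows. The window of Areg lies on the plus strand at chr5:91139349-91139598 and that of Btc on the minus strand at chr5:91402995-91403244, both in sequence before the gene that overlaps no other gene of the RefSeq table. The window of Errfi1 lies before the second of its 2 listed starts, on the plus strand at chr4:150854820-150855069, between both starts and thus within the gene, and it overlaps the non-coding gene 1700045H11Rik, which had at most 1 count in any library.
Areg: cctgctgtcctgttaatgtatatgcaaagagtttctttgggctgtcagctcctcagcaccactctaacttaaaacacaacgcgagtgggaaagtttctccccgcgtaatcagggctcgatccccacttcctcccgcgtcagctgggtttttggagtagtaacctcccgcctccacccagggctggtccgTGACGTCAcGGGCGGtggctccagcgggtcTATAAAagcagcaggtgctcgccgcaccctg
Btc: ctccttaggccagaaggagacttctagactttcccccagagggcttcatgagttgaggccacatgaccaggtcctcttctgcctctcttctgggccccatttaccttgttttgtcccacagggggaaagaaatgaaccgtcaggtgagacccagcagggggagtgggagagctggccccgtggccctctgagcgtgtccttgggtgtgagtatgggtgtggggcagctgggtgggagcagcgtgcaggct
Errfi1: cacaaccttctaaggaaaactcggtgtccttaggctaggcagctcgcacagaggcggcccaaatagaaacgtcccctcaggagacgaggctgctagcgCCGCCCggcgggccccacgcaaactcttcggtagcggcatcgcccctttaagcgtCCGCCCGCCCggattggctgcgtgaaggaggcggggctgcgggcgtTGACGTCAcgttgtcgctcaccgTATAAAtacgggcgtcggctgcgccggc
The 8 letters TGACGTCA, which equal the consensus cyclic AMP response element and read the same on both strands, stood 61 to 54 bases before the start of Areg and 51 to 44 bases before that of Errfi1. They were found in no other of the 8 windows, and in 1.55% of the 32851 promoters of the table. Both promoters also held TATAAA, at 31 to 26 bases before the start of Areg and 28 to 23 before that of Errfi1 (12.4% of all promoters), and GGGCGG, which overlapped with itself in Errfi1 (32.7% of all promoters). Btc held none of the motifs. Windows of Tgfa, Egfr and Adam17 held GGGCGG and no other motif, and those of Erbb2 and of the first start of Errfi1 held no motif. For the other motifs the share of all promoters was 4.46% for TGACTCA, 3.17% for TGTTTAC and 6.02% for CACGTG. A match of letters is a description of the sequence and no evidence that a factor binds there.

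The genes with the most similar pattern were sought by the root mean square distance between log2 CPM values centred on each gene over the 6 libraries. For Areg these were Cd200, Tcam1 and Pqlc3 (distances of 0.13, 0.14 and 0.15), for Ereg Mllt11, Pinx1 and Pi15 (0.07 each), and for Btc Rnf128, Adam23 and Polk. Hbegf was closest to Snap91, Lgals1 and Rdh5, of which Lgals1 had log2 fold changes of -0.14 in PQ and -0.81 in NAC. Tgfa was closest to Arsk, Vamp1 and Zfp931, Egfr to Dhrs13, Mrpl23 and Zdhhc17, and Erbb2 to Nup153, Cep152 and Obsl1. Adam17 was closest to Azi2, Mtmr2 and Utp15, and Errfi1 to Zfp28, Hexim2 and Fmnl1. No member was among the nearest 3 genes of another member.

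The wider pathway was examined through 8 lists of genes sorted by role, from which the 10 genes were left out. Of 119 listed genes 107 were tested. In PQ, 18 rose and 4 fell against control (22 in all, but 10 without the first PQ library and 11 without the second), where 9.40% of all genes tested rose and 8.96% fell, with a median log2 fold change of 0.06 against 0.00 over all genes tested. In NAC, 20 rose and 13 fell (33 in all, but 20 without the second NAC library), where 8.94% of all genes rose and 9.39% fell, with a median of 0.00, as over all genes. The split moved too: without the first control library 10 rose and 6 fell in PQ, and in NAC 8 fell without the second control library and 7 without the first NAC library. Between PQ and NAC, 24 were higher and 19 lower in PQ (15.7% and 15.4% of all genes), but 11 lower without the second PQ or the second NAC library. The same shares of all genes stand behind the counts of each list below, from which nothing particular to a list is read. All p-values below are from edgeR's quasi-likelihood test, adjusted by Benjamini and Hochberg's method over all genes tested.

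Other ligands and ERBB4, apart from Nrg2, were scarce in these cells. Of 7 listed, Egf, Nrg2 and Nrg4 were tested, and Epgn, Nrg1, Nrg3 and Erbb4 lay below the filter. Nrg2, a neuregulin, was the most counted, with 136 and 162 expected counts in control, 141 and 119 in PQ, and 119 and 114 in NAC. None of the 3 was called by edgeR in any comparison, nor by DESeq2 or limma, while at an unadjusted p under 0.05 the count was 2 in NAC against control and 0 in the other comparisons. Egf itself had 6 to 15 expected counts per library, so the added EGF of the medium had little endogenous transcript beside it.

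Among 14 genes of ligand shedding and transport, 13 were tested, of which 5 rose and 1 fell in PQ (median 0.11) and 4 rose in NAC (median 0.16). Frmd8, a partner of the iRhom proteins that carry ADAM17 to the cell surface, rose in both treatments. It had 59.9 and 76.7 CPM in control, 115 and 110 CPM in PQ, and 102 and 124 CPM in NAC, and every treated library lay above both control libraries. Its log2 fold change was 0.72 in PQ (standard error 0.12, adjusted p = 0.00046, edgeR) and 0.72 in NAC (standard error 0.12, adjusted p = 0.0003, edgeR). Timp3, an inhibitor of ADAM17 and other metalloproteases, rose as well, by 0.44 in PQ (adjusted p = 0.0038, edgeR) and 0.40 in NAC (adjusted p = 0.0063, edgeR), although the call in NAC was lost without the first NAC library and its expected counts were fractional in all 6 libraries. Timp1 rose by 0.73 in PQ (adjusted p = 0.00037, edgeR) and by 0.39 in NAC (adjusted p = 0.029, edgeR), the latter call being lost without the first control or the second NAC library, in DESeq2 and with the labelled protocol as a term. Adam12, another metalloprotease able to cleave HB-EGF, was at 660 and 686 CPM in control, 533 and 537 CPM in PQ, and 840 and 831 CPM in NAC. PQ and NAC lay on opposite sides of control and differed by a log2 fold change that came to -0.64 (standard error 0.09, adjusted p = 1.5e-05, edgeR). Rhbdl2, a rhomboid protease, rose in PQ by 1.46 (adjusted p = 0.049, edgeR), but from 2.56 and 10.9 expected counts in control to 19.9 and 20.2 in PQ, with fractional counts, and the call was lost in DESeq2 and on leaving out any library but the second control. Rhbdf1, which encodes an iRhom, was lower in PQ than in NAC by 0.55 on the log2 scale (adjusted p = 0.0037, edgeR), a call lost without the second PQ or the second NAC library.

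Of 15 tested genes for adaptors and enzymes that link the receptors to downstream pathways, 3 rose and 1 fell in NAC (median 0.00), and 1 rose in PQ (median 0.07). Gab1, a docking protein that carries PI3K to activated EGFR, stood at 41.8 and 41.9 CPM in control, 44.3 and 43.7 CPM in PQ, and 72.4 and 70.4 CPM in NAC. The NAC libraries lay far above the other 4, with a log2 fold change against control that came to 0.77 (standard error 0.10, adjusted p = 2.5e-05, edgeR). Gab2 rose by 0.43 in NAC (adjusted p = 0.0036, edgeR) and Crkl by 0.40 (adjusted p = 0.0054, edgeR), and both NAC libraries exceeded both control libraries for each. Shc1 was at 82.3 and 103 CPM in control, 121 and 101 CPM in PQ, and 66.4 and 74.1 CPM in NAC. It fell by 0.40 in NAC (adjusted p = 0.025, edgeR), a call lost in limma and without the second control or the first NAC library, and PQ exceeded NAC by 0.66 (adjusted p = 0.00034, edgeR). Plcg2, the gene of a phospholipase, was the one of this list called in PQ (log2 fold change 0.71, adjusted p = 0.045, edgeR). It had 35 to 64 expected counts per library and no call in DESeq2 or on leaving out any of the 6 libraries.

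Of 20 tested genes that restrain the receptors or sort them for degradation, Lrig1 and Stam2 rose in PQ (median 0.07), and Sh3kbp1 and Ptprj fell in NAC (median -0.01). Lrig1, a membrane protein that promotes ERBB degradation, was at 381 and 402 CPM in control, 546 and 469 CPM in PQ, and 371 and 410 CPM in NAC. The PQ libraries were above all others, with a log2 fold change that came to 0.38 (standard error 0.10, adjusted p = 0.011, edgeR), a call lost without the first control or the first PQ library. Stam2 rose by 0.33 (adjusted p = 0.032, edgeR), and its call was lost in DESeq2 and on leaving out any single library of control or PQ. Sh3kbp1, which encodes the CBL partner CIN85, fell by 0.47 in NAC (adjusted p = 0.0023, edgeR), and Ptprj, a receptor phosphatase, fell by 0.39 (adjusted p = 0.0039, edgeR). For both genes the NAC libraries lay below all the others. Rnf41, a ubiquitin ligase for ERBB3, was higher in PQ than in NAC by 0.46 (adjusted p = 0.0026, edgeR), a call lost without the first PQ library.

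The kinases from RAS to ERK carry the signal of the receptors onward. Of 11 tested, edgeR called 0 in PQ against control (DESeq2 and limma on log2(FPKM + 1) also 0, and 2 at an unadjusted p under 0.05), with a median of 0.02. In NAC, Map2k1 fell by 0.33 (standard error 0.09, adjusted p = 0.018, edgeR), a call lost without the second control or either NAC library. Map2k1 encodes MEK1, which activates ERK, and had 150 and 161 CPM in control, 162 and 168 CPM in PQ, and 125 and 123 CPM in NAC. Its expected counts were fractional in 5 libraries.

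Among genes of PI3K and AKT signalling, 4 of 11 tested rose in PQ (median 0.19), and 3 rose and 3 fell in NAC (median -0.09). Akt2 rose by 0.43 in NAC (adjusted p = 0.0021, edgeR), from 172 and 167 CPM to 224 and 234 CPM. The catalytic subunit gene Pik3cb fell by 0.45 in NAC (adjusted p = 0.0081, edgeR), and this call was lost without the second NAC library, with fractional counts in all 6. Pik3cd rose in both treatments, by 1.52 in PQ (adjusted p = 0.0032, edgeR) and 1.17 in NAC (adjusted p = 0.021, edgeR), at 17 to 75 expected counts per library. The former call was lost without the first PQ library, and the latter in DESeq2 and limma and without the first control or the second NAC library. The regulatory subunit gene Pik3r3 was higher in PQ than in NAC by 0.75 (adjusted p = 0.00011, edgeR).

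**Figure D5:**
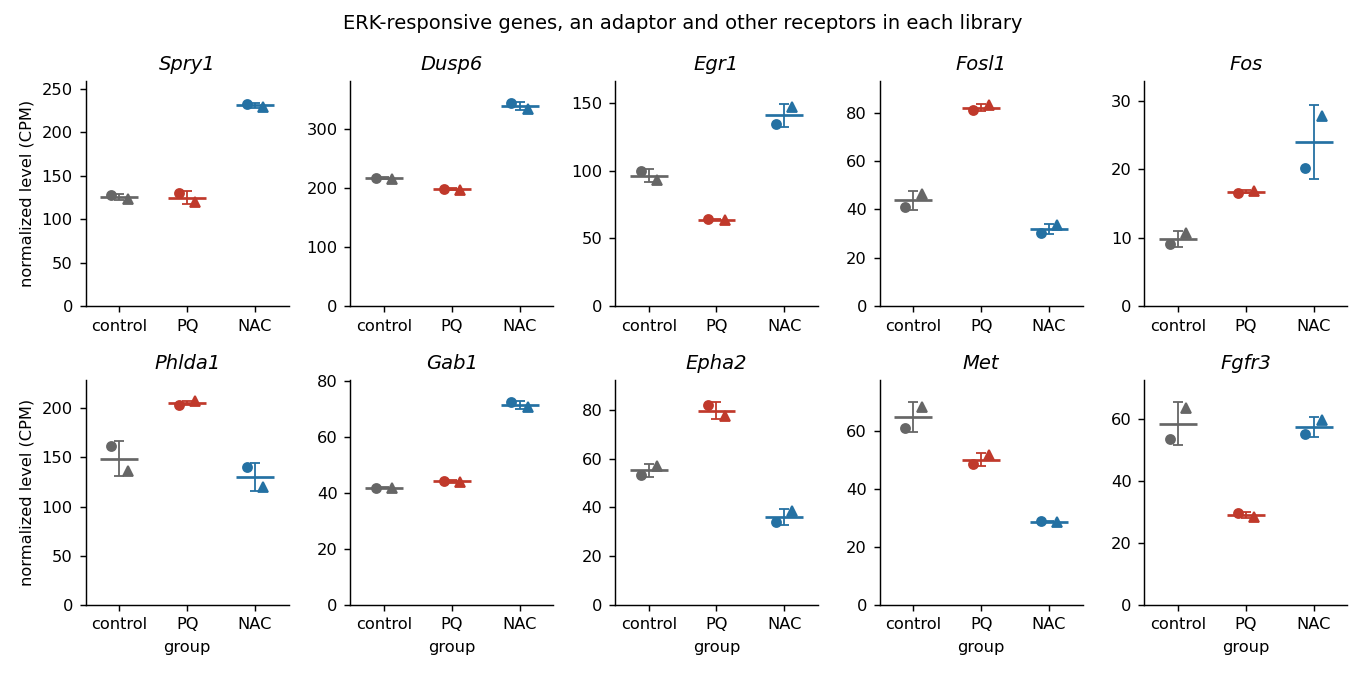
Normalized level in CPM (vertical axis) of 6 ERK-responsive genes, the adaptor gene Gab1 and 3 other receptor genes in each group (horizontal axis), picked for display after their values were seen. Points are libraries, bars the mean and error bars 1 SD (n = 2). Spry1, Dusp6 and Gab1 are high in NAC, Fosl1 and Epha2 high in PQ, and Fgfr3 low in PQ.

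ERK-responsive genes are induced when growth factor signals reach the nucleus, and many of them feed back on the pathway. They were listed as a readout downstream of growth factor receptors. The medium held bFGF as well as EGF, and which receptor acted on these genes was not tested. Of 16 tested, 7 rose and 1 fell in NAC (median 0.23 against 0.00 over all genes), and 4 rose and 1 fell in PQ (median 0.06). Spry1, a Sprouty inhibitor of receptor signalling, stood at 128 and 123 CPM in control, 130 and 120 CPM in PQ, and 233 and 228 CPM in NAC. NAC exceeded every other library, with a log2 fold change that came to 0.87 (standard error 0.09, adjusted p = 2.3e-06, edgeR). Dusp6, the phosphatase that inactivates ERK in the cytoplasm, had 217 and 216 CPM in control, 199 and 196 CPM in PQ, and 343 and 333 CPM in NAC, and rose by 0.64 in NAC (adjusted p = 3.8e-05, edgeR). The immediate early gene Egr1 went opposite ways, with 99.8 and 92.9 CPM in control, 64.3 and 63.6 CPM in PQ, and 135 and 147 CPM in NAC. It fell by 0.59 in PQ (adjusted p = 0.00044, edgeR), and PQ and NAC differed by -1.14 (standard error 0.10, adjusted p = 1.1e-07, edgeR). Fosl1, which encodes the AP-1 subunit FRA1, had the reverse order, at 40.9 and 46.5 CPM in control, 81.1 and 83.1 CPM in PQ, and 30.4 and 33.5 CPM in NAC. Its groups did not overlap, and it rose by 0.91 in PQ (standard error 0.11, adjusted p = 1.4e-05, edgeR) and differed by 1.36 between PQ and NAC (adjusted p = 5.3e-08, edgeR). Fos rose in both treatments, by 0.76 in PQ (adjusted p = 0.0071, edgeR, lost without the first PQ library) and by 1.28 in NAC (adjusted p = 4e-05, edgeR). Phlda1 rose by 0.47 in PQ (adjusted p = 0.0045, edgeR), and Dusp5 by 0.57 in NAC (adjusted p = 0.025, edgeR), a call lost in DESeq2 and without the second control or either NAC library.

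Other receptor tyrosine kinases were listed for comparison with the ERBB receptors. Of 18 tested, 2 rose and 2 fell in PQ (median -0.10), and 3 rose and 5 fell in NAC (median 0.03). Met, the receptor of hepatocyte growth factor, stood at 61.2 and 68.5 CPM in control, 48.6 and 51.8 CPM in PQ, and 28.9 and 28.6 CPM in NAC. It fell by 1.17 in NAC (standard error 0.11, adjusted p = 6.3e-07, edgeR) and by 0.37 in PQ (adjusted p = 0.021, edgeR), the latter call being lost in DESeq2 and limma and without the second control or either PQ library. Fgfr3, a receptor for the FGF supplied in the medium, had 53.7 and 63.5 CPM in control, 29.8 and 28.3 CPM in PQ, and 55.3 and 59.8 CPM in NAC. It fell by 1.01 in PQ (standard error 0.12, adjusted p = 1.1e-05, edgeR), below all the other libraries. Epha2 rose by 0.53 in PQ (adjusted p = 0.0016, edgeR) and differed by 1.14 between PQ and NAC (adjusted p = 3e-07, edgeR). Ntrk2, the receptor of brain-derived neurotrophic factor, rose by 1.36 in NAC (adjusted p = 3e-05, edgeR) with fractional counts in all 6 libraries, and Ddr1 by 0.63 (adjusted p = 0.0003, edgeR), whereas Fgfr2 fell by 1.24 (adjusted p = 0.0028, edgeR) from 50 and 70 expected counts in control to 24 and 30. Flt1 rose by 0.45 in PQ (adjusted p = 0.0083, edgeR), a call lost without the second PQ library.

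Markers of cell types were read beside these values, since the culture is mixed. The neural stem and progenitor list (10 genes, Vim the most abundant, Hes5 near 0) summed to 6475 and 6600 CPM in control, 6905 and 7133 CPM in PQ, and 4831 and 4785 CPM in NAC. The sum in NAC was thus lower, as was that of Hbegf and Areg. Of the 9 genes of this list tested, 1 was called higher and 3 lower in NAC than in control. Over all genes tested, 8.94% were called higher in NAC and 9.39% lower. The astrocyte list (6 genes, Aldoc the most abundant) summed to 126 and 137 CPM in control, 138 and 148 CPM in PQ, and 257 and 258 CPM in NAC. Of its 6 genes 4 were called higher in NAC, among them Gfap and Aqp4. Aldh1l1 went the other way, with a log2 fold change of -0.49 in NAC, which did not pass the threshold. It was called higher in PQ, by 1.17 (adjusted p = 0.0036, edgeR). Tgfa, Egfr, Spry1 and Dusp6 were highest in the NAC libraries, and the part of cell type in these differences was not tested. The oligodendrocyte list (10 genes, Olig1 the most abundant) summed to 1722 and 1950 CPM in control, 1933 and 1737 CPM in PQ, and 2047 and 2290 CPM in NAC, with Sox10 and Gpr17 near 0 and Mog in no table. Of its 6 genes tested, 3 were called higher in NAC than in control and 0 lower.

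The neuronal list (7 genes, Map2 the most abundant, Stmn2 and Neurod1 near 0 and Rbfox3 in no table) summed to 209 and 198 CPM in control, 183 and 193 CPM in PQ, and 362 and 321 CPM in NAC. The higher sum in NAC came from Map2, whereas Tubb3, at 6 to 41.0 expected counts per library, was called lower in both treatments. The microglial and blood list (7 genes) was low, its most abundant gene P2ry12 having 30 to 97 expected counts per library, with Aif1, Csf1r and Tmem119 near 0, and mesenchymal markers to at most 31.4 CPM, mostly Col3a1. Endothelial markers reached at most 1.98 CPM and epithelial markers at most 1.15 CPM in total. Cdkn2a, the gene that encodes both INK4A and ARF, had 120 to 162 expected counts in each library, and a count per gene does not separate deleted from retained exons, so it checks nothing about the genotype.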

How the data were processed

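For each library the authors deposited 1 table of genes with their expected counts and FPKM, and genes without an entry were taken as 0. Expected counts were rounded and tested with edgeR 4.0.16 in R 4.3.3 (TMM normalization, quasi-likelihood test, all 6 libraries) on the 12530 genes whose mean expected count reached 10, and p-values were adjusted by Benjamini and Hochberg's method (threshold 0.05). The submitters' processing notes name TopHat2 2.0.11, Cufflinks 2.1.1 and mm9 for 2 libraries, and HISAT2 2.0.4, Bowtie2 2.2.5, RSEM and mm10 for 4, although all tables have the same form. Symbols were found for 99.7% of the 17254 genes.

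The members and lists were chosen with earlier results of these data known. From each list and comparison, up to 4 genes past the threshold with the largest absolute log2 fold change could be named, and those printed were picked from these after their values were seen. Results were also computed with DESeq2 1.42.0 (size factors, test), limma 3.58.1 on log2(FPKM + 1) and log2(FPKM + 0.1), no count filter, genes filtered by a mean FPKM of 1, the labelled protocol as a term, only the 4 libraries compared and each library left out in turn. The spacing of cysteines in EGF-like domains was not examined, since no protein table was available.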

Additional observations from a re-analysis of the deposited data

How the results depend on the processing

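Total counts past the threshold, over all genes and over all pathway genes, moved by over 1.5 times only on leaving out libraries. Smaller counts moved by more in other fits. PI3K and AKT genes called higher in NAC went from 3 to 1 in limma on log2(FPKM + 1). Members called lower in PQ than in NAC went from 3 to 1 with the labelled protocol as a term. For PQ against control the 2301 genes became 846 without the first PQ library and 1491 without the second (range 846 to 2207). For NAC against control the 2296 genes became 1357 without the first NAC library (range 1357 to 2185). For PQ against NAC the 3894 genes became 2457 without the first PQ library and 2566 without the first NAC library (range 2457 to 4412). Of the pathway genes, 22 in PQ became 10 and 11 without the first and second PQ library, and 33 in NAC became 20 without the second NAC library (ranges 10 to 20 and 20 to 30). The cause was not tested. Leaving out a library leaves its group with 1, assumed to vary like the other groups.

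Of 378 alternative log2 fold changes of the members, 363 lay within 1 standard error. The sign turned in 4 results, each on leaving out 1 library: Tgfa in PQ (0.31, but -0.04 without the first control), Erbb2 in PQ (-0.11, but 0.05 without the second control), Adam17 in NAC (0.04, but -0.03 without the first NAC library) and Adam17 between PQ and NAC (-0.02, but 0.05 without the first NAC library). Those of Areg ranged from 1.09 to 1.42 in PQ and from -0.98 to -0.64 in NAC with the control library left out. No paired analysis was possible because the labels give no replicate numbers, other than by labelled protocol: with it as a term, 2111 genes differed between PQ and control. NAC has no library under protocol A. Libraries were numbered in accession order.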
